A study of Homo sapiens with 6 samples.

Results

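The genes described here are the histone genes, read in an androgen-dependent line of human prostate cancer cells, LNCaP, with and without PACT. They were taken from the deposited counts by symbol: every gene whose NCBI Gene number carries a current name beginning H1-, H2AC, H2BC, H3C or H4C and then a number, together with H2AJ, H2AX, H2AZ1, H2AZ2, H3-3A, H3-3B, MACROH2A1 and MACROH2A2. The rule used no measured value. It found 85 of the 29806 genes listed, of which 69 are clustered histone genes, 12 are variant histone genes, 3 are pseudogenes (H1-9P, H2AC2P and H2BC20P) and 1 is the antisense RNA H1-10-AS1. The clustered genes comprise 6 H1, 17 H2A, 18 H2B, 13 H3 and 15 H4 genes, with 55 on chromosome 6, 13 on chromosome 1 and 1 on chromosome 12. The variants comprise 4 H1, 6 H2A and 2 H3 genes.

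Bulk RNA-seq libraries were made from 3 dishes of LNCaP parental cells, whose genotype is wild type, and from 3 dishes of PACT KO cells, in which PRKRA, the gene for the double-stranded RNA binding protein PACT, was targeted with CRISPR/Cas9. Both groups were kept in RPMI-1640 with 10% FBS, were harvested 48 h after plating, close to confluency, and have no other agent in their labels. The PACT KO dishes were all of 1 edited clone, grown from a single colony, so that p-values measure only the spread between dishes of one line and a difference that came with a clone cannot be told apart from one that came with the edit. In bulk samples, fewer cells in S phase and fewer histone transcripts per cell cannot be told apart either.

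Histone proteins pack DNA into nucleosomes. Most are encoded by small intronless genes that lie in clusters and are switched on when DNA is copied in S phase. Their mRNAs end in a conserved stem-loop, bound by the protein SLBP, in place of a poly(A) tail. Variant histones come from single genes elsewhere in the genome, are made through the whole cell cycle as polyadenylated mRNAs and replace the clustered forms at particular sites. The libraries were labelled polyA RNA, a selection that is known to keep little of the tailless histone mRNA, so the reads on clustered genes are those of transcripts that passed it.

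PRKRA had 882, 809 and 866 reads in the parental libraries and 291, 331 and 243 in the PACT KO libraries. The groups did not overlap, and PRKRA was lower in PACT KO by a log2 fold change of -1.57 (SE 0.069, FDR 8.83e-21). Library totals ran from 19930060 to 24940838 reads. The summed level of 8 prostate luminal markers was 3282 to 3288 CPM (counts scaled to a common library size by TMM) in parental and 3405 to 3441 CPM in PACT KO libraries. Of 3 basal epithelial and 4 leukocyte markers none reached 1 CPM in sum in any library, and KRT5, CD3E, PECAM1 and CDH5 had no read. Across libraries, the 4 stromal markers summed to 32.9 to 37.3 CPM in parental and 44.5 to 50.1 CPM in PACT KO, mostly COL1A1, and the 3 endothelial markers to 24.3 to 27.0 and 15.6 to 17.7 CPM, all of it VWF. Their part in the results below was not tested.

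Some short sequences are known from clustered histone genes, and they are shown for the genes on which the results turn. The first is the stem-loop at the 3′ end of the mRNA. It was searched for by the histone stem-loop consensus in the GENCODE v29 transcript of each member and was present in 31 of 69 clustered genes, many of whose models stop at the end of the coding sequence, and in 1 of 12 variants, H2AX. The paired bases are in capitals, the loop is in lower case, and T stands for U.

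H2AC8, H2BC8, H2BC21, H2AC6 and 13 other members: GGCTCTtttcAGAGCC
H4C8, H4C16 and 3 other H4 genes: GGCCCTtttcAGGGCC
H2BC4, H2BC5, H2BC7 and H3C8: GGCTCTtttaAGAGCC
H3C6: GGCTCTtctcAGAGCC
H2AX: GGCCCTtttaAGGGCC

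The model of H2BC21, the clustered gene with the most reads, runs on for 1729 bases after its stem-loop, and that of H2AX for 1044 bases. In 23 clustered genes the model runs on for more than 100 bases after the stem-loop.

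The second kind of sequence is the promoter. Clustered H2A and H2B genes often lie head to head with a short stretch between their starts, and this stretch carries the octamer ATTTGCAT, which is bound by OCT1. In the RefSeq promoters, read as 250 bases before the start, the octamer was found on either strand in 14 of 18 clustered H2B genes (77.8%) and 11 of 16 clustered H2A genes with a promoter entry (68.8%), against 2.03% of the 27305 genes of the table. It was in none of the H1 and H4 genes and in 9.09% of the H3 genes. CCAAT, the box bound by NF-Y, was in 84.4% of clustered genes and 37% of all genes, and TATAAA was in 67.2% and 13%. Of the 11 variants with a promoter entry, 81.8% had CCAAT and 36.4% had TATAAA, so CCAAT did not set the classes apart. Clustered H4 genes had CCAAT in only 23.1%, and each other clustered family had it in 100%. The promoters of the pair H2AC8 and H2BC8 (shown once, from the H2BC8 side), of H1-2 and of H2AJ are printed on the strand of the gene, 5′ to 3′, ending at the base before the start, with matches to the 3 motifs on either strand in capitals, none of which overlaps another. In that of H2BC8 (GRCh38.p14, chr6:26216689-26216938, minus strand) the octamer begins 48 bases, TATAAA 32 bases and the nearest CCAAT 78 bases before the start. H1-2 (chr6:26056471-26056720, minus strand) has 1 CCAAT, 57 bases before the start, and H2AJ (chr12:14774155-14774404, plus strand) has 3 matches to CCAAT and neither of the other motifs.

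H2BC8: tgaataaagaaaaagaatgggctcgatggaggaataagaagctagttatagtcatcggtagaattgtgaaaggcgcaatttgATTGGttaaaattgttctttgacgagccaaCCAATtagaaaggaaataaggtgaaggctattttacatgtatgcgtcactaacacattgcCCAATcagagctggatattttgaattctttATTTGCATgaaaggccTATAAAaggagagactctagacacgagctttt
H1-2: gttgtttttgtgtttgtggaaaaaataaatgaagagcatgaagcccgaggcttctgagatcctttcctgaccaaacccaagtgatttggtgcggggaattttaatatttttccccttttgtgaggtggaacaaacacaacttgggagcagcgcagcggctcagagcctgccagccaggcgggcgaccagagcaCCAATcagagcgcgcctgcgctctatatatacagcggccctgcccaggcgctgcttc
H2AJ: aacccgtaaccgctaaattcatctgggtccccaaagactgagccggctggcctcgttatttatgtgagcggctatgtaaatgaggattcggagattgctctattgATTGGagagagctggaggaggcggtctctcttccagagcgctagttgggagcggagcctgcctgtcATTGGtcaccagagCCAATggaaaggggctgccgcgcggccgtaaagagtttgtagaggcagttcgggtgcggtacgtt

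The comparison asked how histone mRNA differs between PACT KO and parental cells, and whether clustered genes differ from variants in this respect. Of the clustered genes that could be tested most were not called, 3 (H1-2, H2AC8 and H2BC8) were lower in PACT KO, and H2AJ, a variant H2A gene, had no read in any PACT KO library. Other variants shifted in both directions, with H2AX, lower in PACT KO, the furthest. A gene was called when the edgeR quasi-likelihood test, with Benjamini-Hochberg adjustment over 14462 genes, gave an FDR under 0.01. A called gene that also changed by 1.5-fold or more, a log2 fold change of 0.585, is termed a DEG below. Of the 85 members, 40 had enough reads for the test, and of these 8 were called lower and 3 higher in PACT KO. Among all genes tested, 18.8% were called lower and 15.3% higher. DEGs made up 2.65% of all genes tested in the lower and 3.07% in the higher direction, while among the members 4 were DEGs, all lower, and none was a DEG in the higher direction. The other 45 members did not pass the filter on low counts, and 21 of them had no read in any library.

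**Figure D1:**
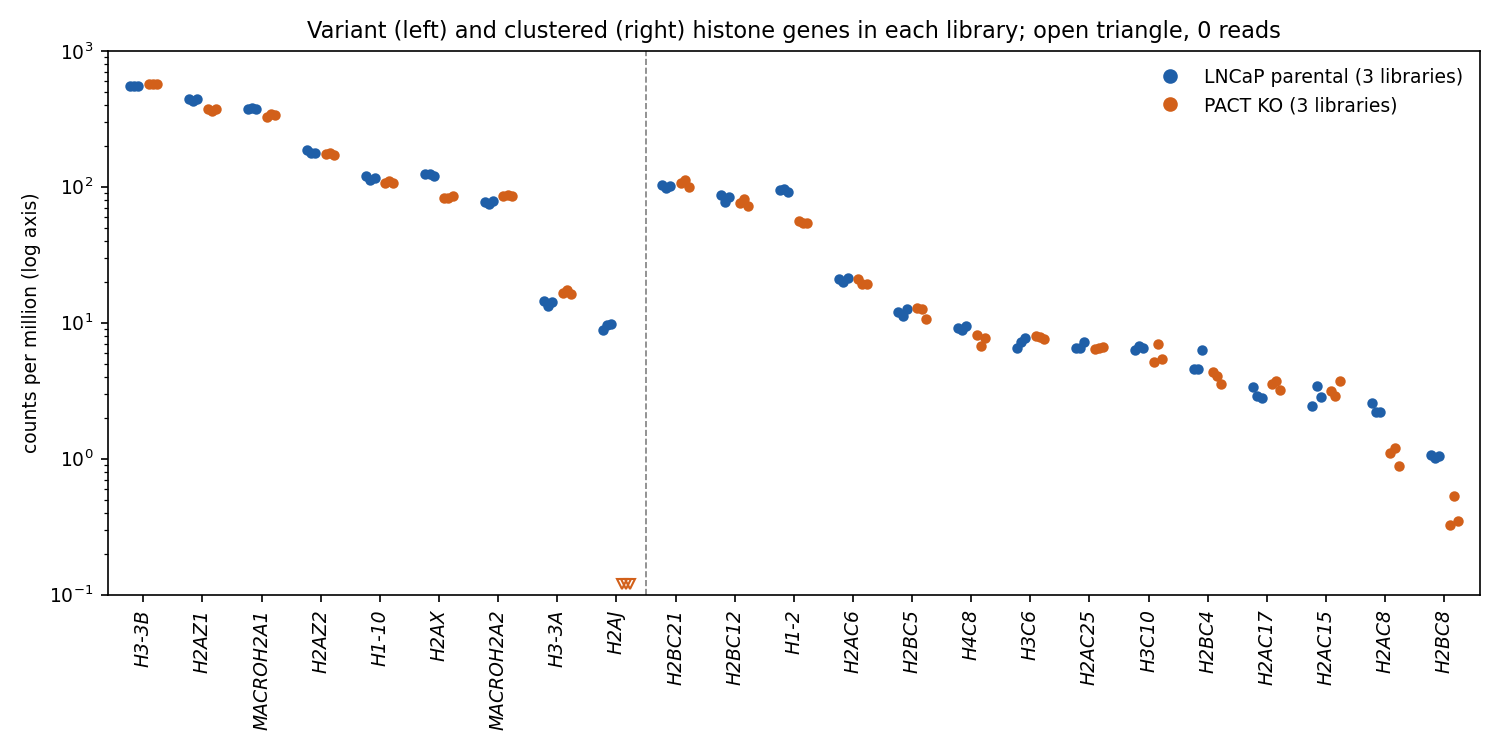
CPM (log axis) of 9 variant and 14 clustered histone genes in each of the 3 LNCaP parental (blue) and 3 PACT KO (orange) libraries, in order of reads within each class. Open triangles at the lower edge mark the 3 PACT KO libraries in which H2AJ had 0 reads, and only H1-2, H2AC8, H2BC8, H4C8 and H2BC4 of the clustered genes drawn have no overlap between groups.

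Clustered genes held little of each library. They took 0.0360% to 0.0373% of the reads in parental and 0.0313% to 0.0340% in PACT KO libraries, while variants took 0.196% to 0.199% and 0.189% to 0.192%. The lowest share, in PACT KO replicate 3, had a 95% Wilson interval of 0.0305% to 0.0321%, which covers counting error only. Variants therefore had 5.31 to 5.46 reads for each read of a clustered gene in parental libraries and 5.56 to 6.12 in PACT KO libraries. These ranges did not overlap, but their separation depended on H1-2. With H1-2 left out, the clustered sums were 284, 268 and 285 CPM in parental and 281, 283 and 254 CPM in PACT KO, which overlapped. Variants summed to 1984 to 2017 CPM in parental and 1872 to 1888 CPM in PACT KO libraries.

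Most reads of the clustered class came from few genes. H1-2, H2BC12 and H2BC21 held 70.95% to 75.0% of the clustered reads of a library. Of the 69 genes, 28 were tested, 14 others had at least 10 reads over the 6 libraries, 10 had 1 to 9 reads and 17 had none. Summed over the class, the level was 372 ± 7.88 CPM in parental and 328 ± 16.5 CPM in PACT KO (SD, n = 3), a ratio of 0.880. Without H1-2 the sums were 279 ± 9.69 and 273 ± 16.1 CPM, a ratio of 0.978. The lower sum of the class thus lay mostly in 1 gene.

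H1-2 (NCBI Gene 3006, chr6:26055740-26056470 in GRCh38.p14) encodes a linker histone, which binds where DNA enters and leaves the nucleosome. It had 2140, 2071 and 2246 reads in the parental libraries and 1382, 1322 and 1101 in the PACT KO libraries. Every PACT KO library was below every parental library. Parental cells had 93.6 ± 2.61 CPM and PACT KO cells 54.9 ± 0.884 CPM (SD, n = 3), and the log2 fold change was -0.77 (SE 0.036, FDR 8.08e-20). It was the only clustered H1 gene that passed the filter, and the 6 clustered H1 genes together went from 94.1 to 55.9 CPM.

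The other clustered genes that were called lie head to head, 232 bases between their starts, and share the promoter printed above. H2AC8 (NCBI Gene 3012, chr6:26216921-26217437) encodes a core histone H2A and had 58, 48 and 55 reads in parental and 27, 29 and 18 in PACT KO libraries. H2BC8 (NCBI Gene 8339, chr6:26216200-26216688), which encodes its H2B partner, had 24, 22 and 26 reads in parental and 8, 13 and 7 in PACT KO libraries. Neither gene overlapped between groups. H2AC8 had 2.33 ± 0.193 and 1.06 ± 0.154 CPM, which gave a log2 fold change of -1.12 (SE 0.20, FDR 1.44e-05). For H2BC8 the levels were 1.04 ± 0.0210 and 0.401 ± 0.116 CPM, with a log2 fold change of -1.35 (SE 0.34, FDR 0.0011). Against the stricter null hypothesis of a change within 1.5-fold, the FDR was 0.0531 for H2AC8 and 0.138 for H2BC8, and 8.63e-05 for H1-2.

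Head-to-head pairs, with 193 to 247 bases between their starts, numbered 12, and in 8 of them both genes were tested. In 6 of the 8 both genes had the same sign, and H2AC8 with H2BC8 was the only pair with both genes called. Among the genes tested, 5 of 8 clustered H2A and 10 of 12 clustered H2B genes were below 0. Many pairs would thus share a sign without any link between partners, and the agreement was not tested. H2AC11 and H2BC11, for example, had log2 fold changes of -0.52 (SE 0.24) and -0.21 (SE 0.21), and neither was called. H2AC20 and H2BC21 had 0.51 (SE 0.35) and 0.08 (SE 0.037), without a call. Partners also differed widely in their reads, with 95 for H2AC20 and 14309 for H2BC21 over the 6 libraries.

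**Figure D2:**
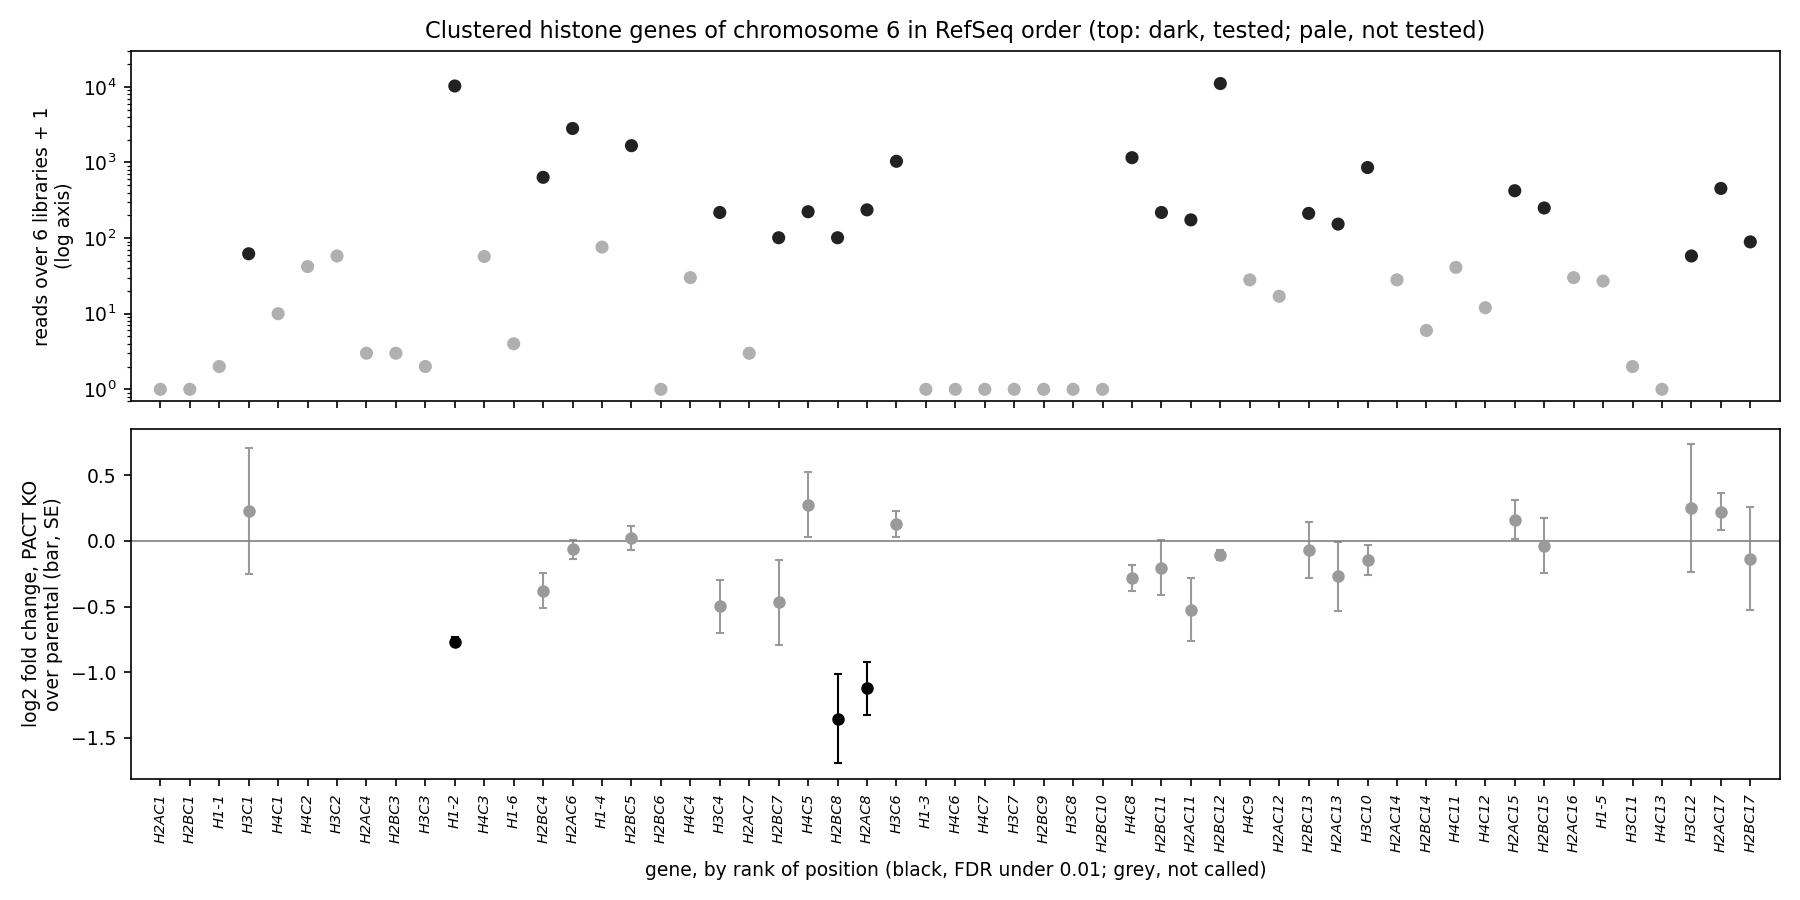
The 55 clustered histone genes of chromosome 6 in order of position (by rank, not to distance), with the reads over the 6 libraries plus 1 on a log axis above and the log2 fold change of the tested genes with its SE below. H1-2, H2BC8 and H2AC8 (black) were called lower, and the genes between H3C6 and H4C8 had no read in any library.

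Of the 28 clustered genes tested, 3 were called lower and 0 higher by edgeR, against 18.8% and 15.3% of all genes tested. DESeq2 also called 0 higher, and at an unadjusted p under 0.05 1 was higher, H2BC21, and 8 were lower. In all, 19 had a log2 fold change below 0 and 9 above, with a median of -0.12 beside 0.00 over all genes tested. The groups did not overlap in 8 of the 28, compared with 52.2% of all genes tested. Precision was low for this class, since the median SE of its genes was 0.207 and the median over all genes tested was 0.060. The median clustered gene tested had 228.5 reads over the 6 libraries. With this error, a change of the median size seen over all genes, an absolute log2 fold change of 0.147, was not detectable for most clustered genes.

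The 12 clustered genes with the most reads allow a closer look. Beside H1-2 they are core histone genes, 4 of H2B, 4 of H2A, 2 of H3 and 1 of H4. H2BC21 had 2335, 2105 and 2508 reads in parental and 2636, 2729 and 1996 in PACT KO libraries, a log2 fold change of 0.08 (SE 0.037, FDR 0.0823), with overlap between groups and a call only without PACT KO replicate 3 (0.13, FDR 0.0039). H2BC12 had 1966, 1679 and 2078 against 1890, 1988 and 1455 reads, a log2 fold change of -0.11 (SE 0.041, FDR 0.0320), again with overlap. It was called without parental replicate 2 (-0.15, FDR 0.0062) and without PACT KO replicate 2 (-0.15, FDR 0.0012). These genes have nearly as many reads as H1-2 or more, so that a change of the size of H1-2 would have been seen in them. H2BC12 shares 74.1% of the 50-base stretches of its transcript model with other genes, and its reads may be split among copies. That model is 381 bases long and the RefSeq gene spans 8566 bases, so the share covers only part of the gene.

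H4C8, an H4 gene, had 208, 190 and 236 reads in parental and 202, 164 and 156 in PACT KO libraries. Scaled by library these did not overlap, and the log2 fold change was -0.28 (SE 0.099, FDR 0.0190). H2BC4 had 103, 99 and 157 against 107, 98 and 71 reads, a log2 fold change of -0.38 (SE 0.13, FDR 0.0183), and its levels did not overlap either. Both missed the threshold with all 6 libraries. Without PACT KO replicate 1 H4C8 was called (-0.35, FDR 0.0099). H2BC4 was called without parental replicate 1 (-0.47, FDR 0.0092), but without parental replicate 3 its log2 fold change was only -0.19. H2AC6, the partner of H2BC4, had a log2 fold change of -0.06 (SE 0.070) and H2BC5 one of 0.02 (SE 0.091). The remaining 5 genes of this group (H2AC15, H2AC17, H2AC25, H3C6 and H3C10) had log2 fold changes between -0.15 and 0.22, and none was called.

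The other 14 clustered genes tested had 56 to 249 reads each over the 6 libraries and log2 fold changes from -0.52 to 0.51, none of them called. Levels of 3 of the 14, all with values below 0, did not overlap between groups, a smaller share than the 52.2% of all genes tested. H2AC11 had 36, 26 and 40 reads in parental and 29, 22 and 20 in PACT KO libraries (FDR 0.0702), and H3C4 had 40, 39 and 48 against 38, 28 and 24. H2BC7 had 17, 21 and 20 against 18, 14 and 10 reads, a log2 fold change of -0.47 (SE 0.32, FDR 0.248). At the other end stood genes that were high in PACT KO replicate 1. H4C5 had 27, 34 and 39 reads in parental and 68, 33 and 21 in PACT KO libraries, and its log2 fold change of 0.28 (SE 0.25, FDR 0.383) came with wide overlap. H2AC20 had 13, 11 and 15 against 28, 18 and 10 reads, also with overlap.

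**Figure D3:**
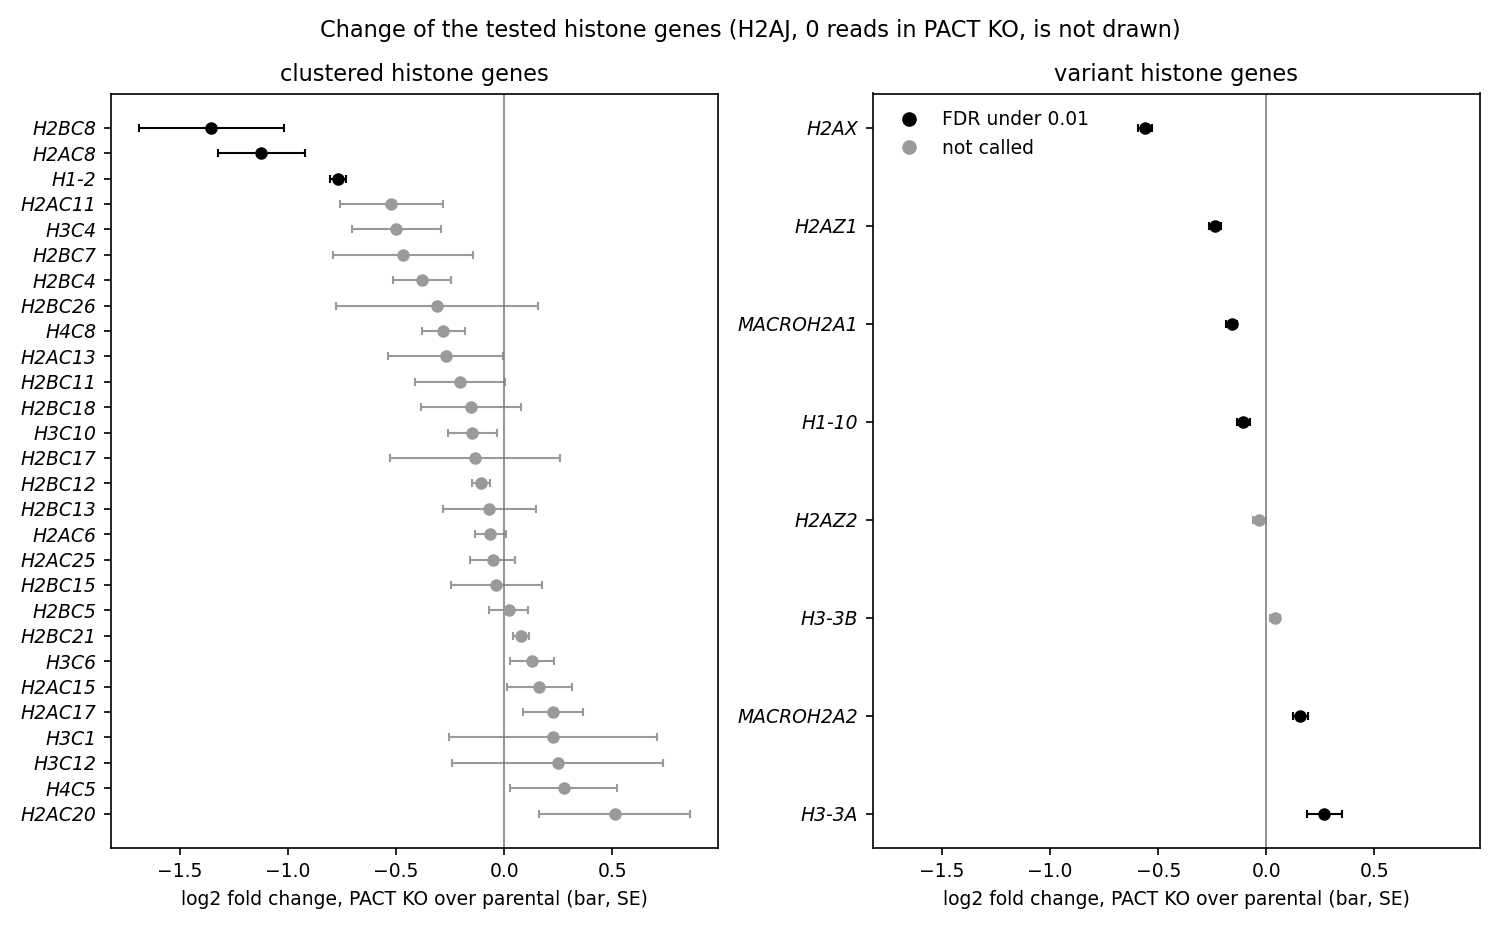
Log2 fold change with its SE for 28 clustered (left) and 8 variant (right) histone genes tested, black where the FDR was under 0.01 and grey otherwise. Bars of the clustered genes are mostly wide and cross or come near 0, those of the variants are short, and H2AJ is left out because it had 0 reads in PACT KO.

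Genes too low for the test were not alike in all libraries. The 14 clustered genes with at least 10 reads that were not tested had 76, 49 and 84 reads in the parental libraries and 160, 73 and 38 in the PACT KO libraries, so the highest and the lowest library were both PACT KO. PACT KO replicate 1 was the highest library for 6 of the 14. The 3 with the most reads were H1-4, H3C2 and H4C3. H1-4, a linker histone gene, had 6, 9 and 7 reads in parental and 40, 11 and 2 in PACT KO libraries, H3C2 had 8, 1 and 8 against 27, 6 and 7, and H4C3 had 11, 4 and 10 against 23, 6 and 2. Each of the 3 was far above the other libraries in PACT KO replicate 1 alone, and no group difference was read from them. Without the filter on low counts, H1-4 had a log2 fold change of 1.23 (FDR 0.0084), with most of its PACT KO reads in that library.

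Zero counts have limits of their own. Of 69 clustered genes, 5 have transcripts that are shared in full with another gene in stretches of 50 bases, and 3 of them (H2AC18, H3C14 and H3C15) had no read in any library. H2AC19, H4C14 and H4C15, which share 97.1%, 97.5% and 97.2%, had none either. Reads of such copies can be dropped or moved in counting, which was not tested. These genes are not typical of the 17 clustered genes without a read, whose median share was 0%. Of the 69 clustered genes, 29 share no such stretch, H1-2, H2AC8 and H2BC8 among them. H3C4, called neither way (log2 fold change -0.50, SE 0.20, FDR 0.0447), shares 100% and overlaps H2AC7. Its model is 411 bases long and the RefSeq gene spans 2510 bases, so this share also covers only part of the gene.

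Of the 12 variants, 10 were tested, and H1-7 and H1-8 had no read in any library. Calls fell on 5 lower (H2AJ, H2AX, H2AZ1, MACROH2A1 and H1-10) and 3 higher (MACROH2A2 and H3-3A among them), and H2AZ2 and H3-3B were not called. Over all genes tested, 18.8% were called lower and 15.3% higher. The groups did not overlap in 9 of the 10 variants and in 52.2% of all genes tested. Read depth was far greater here, with 16580 reads for the median variant and a median SE of 0.032, so that smaller differences could pass the test. Only H2AJ was a DEG. The median log2 fold change of the 10 was -0.07.

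H2AJ (NCBI Gene 55766, chr12:14774405-14778002) encodes H2A.J, a variant close to canonical H2A that is known to build up in senescent cells. It had 202, 207 and 241 reads in the parental libraries and 0, 0 and 0 in the PACT KO libraries. With a floor of 3 reads for each PACT KO library, its level of 9.40 ± 0.443 CPM in parental cells was at least 71.7-fold lower in PACT KO (FDR 9.94e-24), a bound that covers counting error only. None of its transcript is shared with another gene in stretches of 50 bases. No other histone gene that was tested had a group without reads.

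The genes around H2AJ on chromosome 12 had few reads, apart from WBP11. On one side H4C16, a histone H4 gene, had 2, 3 and 2 reads in parental and 0, 0 and 0 in PACT KO libraries, at or under the floor in both groups. On the other side WBP11, a splicing factor gene, had 2532, 2332 and 2577 against 2450, 2375 and 2068 reads, a log2 fold change of -0.11 (SE 0.033, FDR 0.0053). WBP11 was thus read deeply in both groups and was called lower by a small amount. C12orf60, beyond it, was not called (log2 fold change -0.37, SE 0.17, FDR 0.0798), and SMCO3 had 5, 9 and 11 reads against 2, 0 and 0.

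**Figure D4:**
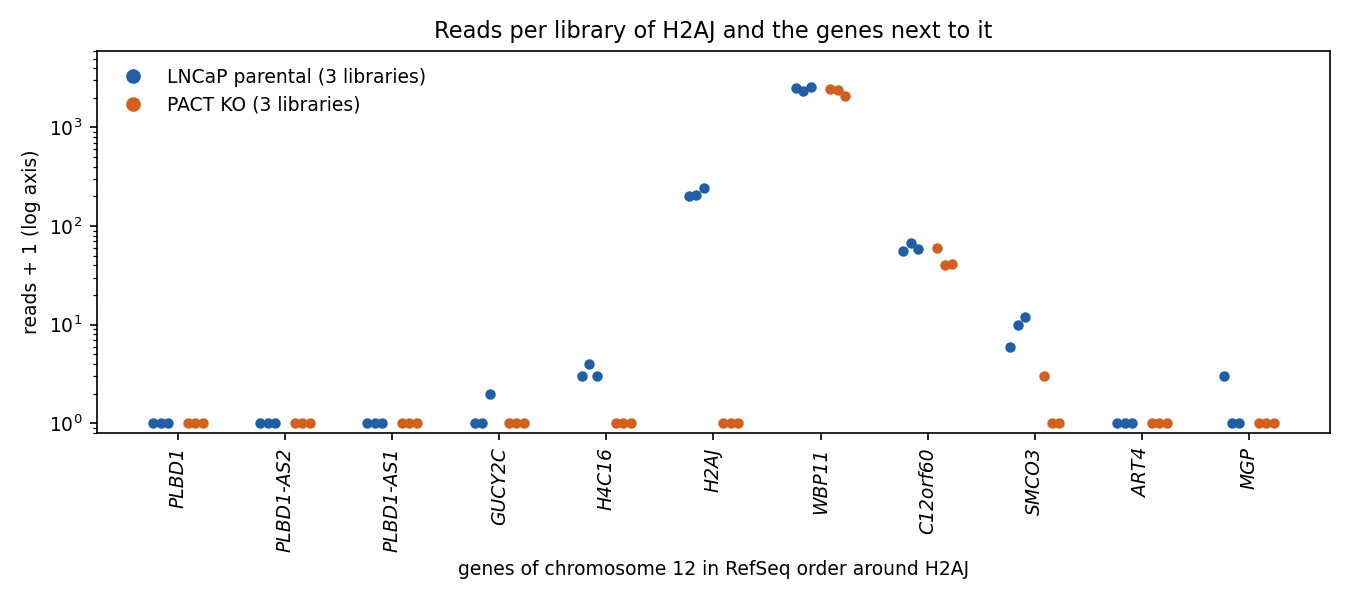
Reads plus 1 (log axis) in each library for H2AJ and the 5 genes on either side of it in RefSeq order. H2AJ had 202 to 241 reads in the parental libraries (blue) and 0 in the PACT KO libraries (orange), whereas WBP11, next to it, had at least 2068 reads in each of the 6.

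H2AX (NCBI Gene 3014), whose phosphorylated protein marks DNA breaks, was the next largest change among variants. It had 2810, 2702 and 2987 reads in parental and 2042, 2020 and 1713 in PACT KO libraries, without overlap. Its level was 123 ± 2.25 CPM in parental and 83.5 ± 1.10 CPM in PACT KO, and its log2 fold change was -0.56 (SE 0.032, FDR 3.01e-17), just short of the 1.5-fold that defines a DEG, with H1-2 as the nearest member past it. H2AX is also the variant that carries a histone stem-loop, as shown above, and so can be made in the replication-dependent as well as the polyadenylated form.

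H2AZ1 and H2AZ2 encode the isoforms of H2A.Z, which is placed at promoters. H2AZ1 had 10054, 9292 and 10857 reads in parental and 9282, 8785 and 7588 in PACT KO libraries, a log2 fold change of -0.24 (SE 0.026, FDR 1.47e-09), and its levels did not overlap. H2AZ2 had 4194, 3821 and 4354 against 4320, 4325 and 3481 reads, with overlap and a log2 fold change of -0.03 (SE 0.029, FDR 0.376). MacroH2A, a variant with a large additional domain that is enriched on silent chromatin, showed opposite signs for its genes. MACROH2A1 had 8515, 8135 and 9195 against 8093, 8276 and 6815 reads, and fell by 0.16 on the log2 scale (SE 0.026, FDR 3.59e-06). MACROH2A2 had 1749, 1617 and 1946 against 2096, 2096 and 1738 reads, and rose by 0.16 (SE 0.034, FDR 2.75e-04). Levels of both genes did not overlap between groups.

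H1-10 encodes the linker histone H1X and had 2717, 2428 and 2871 reads in parental and 2632, 2678 and 2156 in PACT KO libraries, a log2 fold change of -0.11 (SE 0.032, FDR 0.0070). Its levels in CPM did not overlap between groups. H1-10 lost its call in 5 of 10 other settings of the test, with an FDR of up to 0.0474, and in 4 of 6 fits with 1 library left out, with an FDR of up to 0.0512.

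H3-3A and H3-3B encode the same H3.3 protein, which is placed in active genes and at telomeres. H3-3B, with 12494, 11994 and 13734 reads in parental and 14020, 13811 and 11553 in PACT KO libraries, was not called (log2 fold change 0.04, SE 0.025, FDR 0.194), although its levels did not overlap. H3-3A had 327, 287 and 351 against 412, 425 and 328 reads and rose by 0.27 (SE 0.080, FDR 0.0059). That call was lost in 3 of 10 other settings, with an FDR of up to 0.0144, and in 4 of 6 fits with 1 library left out, with an FDR of up to 0.0354. H3-3A took only 2.34% to 2.99% of the H3.3 reads of a library, and 11.7% of its transcript in stretches of 50 bases is shared with other genes. Whether copies took some of its reads in counting was not tested.

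Since both genes of a pair are read in the same library, their ratio does not depend on the scaling between libraries. The ratio of H2AZ2 to H2AZ1 reads was 0.417, 0.411 and 0.401 in parental and 0.465, 0.492 and 0.459 in PACT KO libraries. For MACROH2A2 to MACROH2A1 the ratios were 0.205, 0.199 and 0.212 against 0.259, 0.253 and 0.255. H3-3A to H3-3B gave 0.0262, 0.0239 and 0.0256 against 0.0294, 0.0308 and 0.0284. All 3 ratios were higher in PACT KO without overlap. The exact permutation test over the 6 libraries, 2-sided, gave p = 0.10 for each, which is the smallest p that 3 against 3 allows, and 0.10 after adjustment over the 3 ratios.

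**Figure D5:**
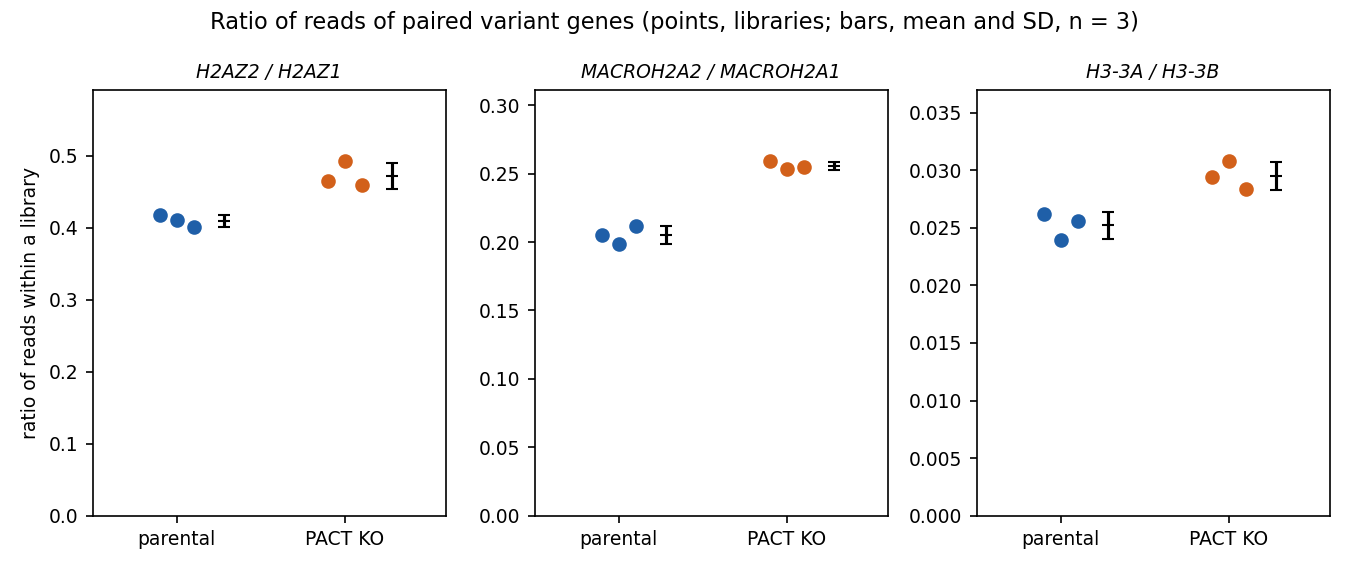
Ratio of the reads of paired variant genes within each library, in LNCaP parental (blue) and PACT KO (orange), with mean and SD (n = 3) beside the points and axes from 0. In all 3 panels every PACT KO library lies above every parental library, from 0.410 to 0.472 on average for H2AZ2 to H2AZ1 and from 0.205 to 0.256 for MACROH2A2 to MACROH2A1.

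Taken by family, variant H2A genes summed to 1200 ± 11.0 CPM in parental and 1050 ± 4.96 CPM in PACT KO (SD, n = 3), a ratio of 0.875. Variant H3 went from 567 ± 2.17 to 586 ± 1.79 CPM. For the clustered core histones the ratios of the sums were 0.949 for H2A, 0.985 for H2B, 0.981 for H3 and 0.908 for H4. The clustered H4 sums were 12.1 ± 0.778 and 10.9 ± 2.21 CPM, which overlapped. Among clustered families only the H1 sum moved far, from 94.1 to 55.9 CPM, of which H1-2 alone made up 93.6 and 54.9 CPM.

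The pseudogene H2BC20P had 89 reads over the 6 libraries and a log2 fold change of 0.04 (SE 0.37), and the antisense RNA H1-10-AS1 had 620 reads and one of -0.02 (SE 0.14). Neither was called. In RefSeq, H1-10 (chr3:129314771-129316286) and its antisense RNA (chr3:129316271-129324569) overlap only at their ends. The use of strand in counting is not given in the sources used here, so reads of both genes may not be separate where they overlap.

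Genes that make and process histone mRNA were read from a list of 44, all tested, of which 16 (36.4%) were called lower and 2 (4.55%) higher (NCBP2 and TUT7), where 18.8% and 15.3% of all genes tested were. None was a DEG, and the median log2 fold change was -0.07, between -0.56 and 0.14. The median gene of the list had 7478 reads, against 3832 over all genes tested. Its median SE was 0.041, against 0.060, so that smaller differences could pass the test. The 6 with the smallest p were all lower. E2F1, a transcription factor of S phase entry, changed by -0.56 (SE 0.041), CDK2, the kinase that activates the histone transcription factor NPAT, by -0.41 (SE 0.044), and CCNE2, a cyclin of CDK2, by -0.49 (SE 0.064). LSM10, a subunit of the U7 particle that cuts histone mRNA, changed by -0.30 (SE 0.042), SYMPK, of the same cutting complex, by -0.23 (SE 0.040), and SRRT, a partner of the cap-binding complex, by -0.24 (SE 0.030). NPAT itself was not called (0.01, SE 0.050), and SLBP, which binds the stem-loop, was called lower (-0.21, SE 0.040, FDR 4.77e-05). NPAT and SLBP were chosen after their values were seen.

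A list of histone chaperones and exchange factors, which also holds the histone gene CENPA, had 50 genes, all tested. Of these, 24 (48%) were called lower and 4 (8%) higher (RBBP4, ATRX, NAP1L1 and DMAP1). Over all genes tested, these shares were 18.8% and 15.3%. The median log2 fold change of the list was -0.11. Depth was again greater than over all genes tested, with 9918 reads for the median gene and a median SE of 0.036. ASF1B, a chaperone that hands H3 and H4 to the assembly factors at forks, was a DEG (40.9 ± 3.37 to 25.4 ± 1.74 CPM, log2 fold change -0.69, SE 0.059). CENPA, the centromeric H3, was the other DEG of the list (-0.73, SE 0.10). HJURP, which loads CENPA, changed by -0.57 (SE 0.051), CHAF1A, of the assembly factor CAF-1, by -0.41 (SE 0.040), and MCM2, a helicase subunit that binds H3 and H4, by -0.48 (SE 0.031). NCL, nucleolin, changed by -0.28 (SE 0.026) and TONSL, which reads newly placed H4, by -0.50 (SE 0.050).

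For comparison, the S phase genes of the Seurat package, none of them a histone gene and 5 of them also in the lists above, were called lower in 38 of 43 and higher in 0, with a median of -0.46, all 43 having a log2 fold change below 0 (CASP8AP2, MRPL36, POLD3 and USP1 were among those not called). Beside this, the median of the 28 clustered histone genes was -0.12. The difference between the lists was not tested, and the reads of clustered genes come from polyA RNA.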

How the data were processed

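Per the labels, 3 LNCaP parental and 3 PACT KO dishes gave polyA RNA. The authors deposited whole-number read counts per NCBI Gene number, not normalized. The submitters' processing notes name bcl2fastq 2.20.0.422, STAR 2.5.3a, StringTie 1.3.3, featureCounts 1.5.3 and hg38; the annotation and the strand setting are not given in the sources used here. A row without a gene number, 0.0688% to 0.0708% of counts, was left out. Symbols came from RefSeq (GRCh38.p14) for 27540 of 29806 numbers, and 16 of the 101 RefSeq names that match the rule are not among the counts. Promoters came from RefSeq, and transcripts, matched by gene number, from GENCODE v29.

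Here, edgeR 4.0.16 (R 4.3.3) was run on all 6 libraries with filterByExpr, TMM scaling and the quasi-likelihood test, 2-sided. The common dispersion corresponds to a biological coefficient of variation of 2.9%. CPM used TMM-scaled totals. SE is that of the log2 fold change, n is the number of libraries, and totals of 19930060 to 24940838 reads set the counting error. Spread between dishes was larger than counting error. The mean squared difference between libraries of a group, divided by that of counting error alone, was 1.55 to 1.93 in parental pairs. In PACT KO pairs it was 2.02 to 3.63. The test was tested on simulated data before use. Alternatives were limma 3.58.1 (voom), DESeq2 1.42.0, other scalings, filters and thresholds, a replicate block, a test against a 1.5-fold change and leaving out each library. Ratios and figures used Python 3.11.15, scipy 1.17.1 and matplotlib 3.10.9, and S phase genes came from Seurat 5.3.0. The members, lists, markers and tests were chosen with earlier results of these data known. Named genes are PRKRA, every variant tested but 1, which is not reported here, every DEG, the 12 clustered genes and 3 genes not tested with the most reads, and the 6 genes of each list with the smallest p, and others are named where a count of 5 or fewer, a pair or a sequence calls for it.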

Additional observations from a re-analysis of the deposited data

How the results depend on the processing

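Of 576 comparisons of a named gene's log2 fold change with its value under another setting, 551 kept direction and side of the threshold. H2AJ, H1-2, H2AC8, H2BC8, H2AX, H2AZ1, MACROH2A1 and MACROH2A2 kept their calls in all 10 other settings (the test against a 1.5-fold change apart) and in all 6 fits with 1 library left out. At an FDR under 0.05, 7 clustered genes were lower (3 in the main analysis), adding H2BC4, H3C4, H4C8 and H2BC12. Clustered genes called higher numbered 0, but 1 without a filter on low counts (H1-4) and 0 to 2 with 1 library left out, the 2 being H1-4 (log2 fold change 1.70) and H2BC21 (0.13) without PACT KO replicate 3. H1-4 is also the 1 DEG in the higher direction that appears without the filter, and with libraries left out these DEGs number 0 to 1. Tested against a 1.5-fold change, 2 of the 4 lower DEGs remained past the threshold, H2AJ and H1-2. Processing genes called higher numbered 1 with DESeq2 and 0 to 2 with 1 library left out (2 in the main analysis, with 0 without parental replicate 1 or 2 and 1 without PACT KO replicate 1), and chaperone genes called higher 2 to 4 (2 without parental replicate 2). With TMM-scaled totals the mean share of variants was 0.200% in parental and 0.188% in PACT KO. Signs reversed, in genes not called, with 1 library left out for H2AC25 (range -0.083 to 0.0037, above 0 without parental replicate 3) and for H2BC5 (range -0.025 to 0.10, below 0 without parental replicate 2 and without PACT KO replicate 1 or 2). Same-numbered libraries did not deviate together (correlations -0.0938, 0.00285 and -0.0862), so numbers do not pair the dishes. A replicate block gave 3 clustered genes called lower and 0 higher, 4 variants lower (H1-10 lost) and 3 higher. Depth limits the clustered class most, as their median SE of 0.207 shows.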
